A study of Mus musculus with 30 samples.

Results

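The complement components and receptors were 9 protein-coding genes taken by name from the deposited gene annotation: C1qa, C1qb, C1qc, C4b, C3, Cfb, Serping1, C3ar1 and C5ar1. They were 9 of the 30952 genes in the table, and each of the 9 had 1 row. Complement is a cascade of plasma and tissue proteins that tags debris, microbes and, in the CNS, synapses and myelin for uptake by phagocytes. C1q, which is assembled from the C1qa, C1qb and C1qc chains, opens the classical pathway by binding to its target, after which C4 and C2 are cleaved to form an enzyme that cleaves C3. Factor B (Cfb) forms the corresponding enzyme of the alternative pathway, and C1 inhibitor (Serping1) inactivates the proteases that C1q carries. C3ar1 and C5ar1 are the receptors for the small fragments released from C3 and C5. Microglia are known as the main source of C1q in the healthy CNS, and reactive glia are known to make C3 and C4.

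RNA was sequenced from microglia and from astrocytes sorted from the spinal cord of 4 naive, 6 EAE-vehicle and 5 EAE-RIPK1inh mice, for 30 libraries, 15 from each cell type. EAE (experimental autoimmune encephalomyelitis) is an autoimmune disease of the CNS, induced here in female C57BL/6 mice, aged 8 to 10 weeks, by immunization with a peptide of the myelin protein MOG. EAE-vehicle mice received 20% Captisol, and EAE-RIPK1inh mice received the RIPK1 kinase inhibitor GSK'547 at 50 mg/kg BID by gavage for 3 days once they had early disease. Naive mice were not immunized, so EAE-vehicle differed from naive by the immunization, the disease and the vehicle together. Microglia were gated as CD11b+ CD45int CX3CR1+ cells and astrocytes as GLAST+ cells that lacked CD11b, CD45 and CD140a, and the libraries of a group and cell type are of separate mice by the design text. The comparisons ask which cell type held the RNA of each component in each treatment group, and how the levels differed in EAE and with the inhibitor.

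Values are log2 FPKM, a level per length of exon and per sequenced fragment, quantile-normalized by the authors so that every library holds the same sorted values. The depth is unknown, and the number of genes with signal, meaning genes above the stretch of lowest values that only follow the order of the table, stands in for it. It ran from 8710 to 20398 in microglia and from 6728 to 22981 in astrocytes. The mean of 10 microglia markers was 7.49 to 10.58 in microglia libraries and 0.83 to 3.46 in astrocyte libraries, and the mean of 8 astrocyte markers was 7.85 to 9.39 in astrocyte libraries and 0.99 to 2.12 in microglia libraries. Slc1a3, which encodes the GLAST of the astrocyte gate, separated the cell types least of these markers, with microglia minus astrocytes at -1.53 in naive and 0.32 in EAE-vehicle mice. Astrocyte libraries also held oligodendrocyte markers, with a mean of 6.19 to 7.39 in naive and 6.38 to 9.91 in EAE-vehicle, and T cell markers that were at 0.34 to 1.27 in naive and 1.40 to 5.79 in EAE-vehicle libraries. Neuron markers there were at 4.34 to 5.23 in naive and 4.95 to 5.82 in EAE-vehicle. Erythrocyte markers were at 3.88 to 8.67 in naive and 0.08 to 7.40 in EAE-vehicle. Endothelial markers were at 4.08 in astrocyte naive 4 and at most 0.64 in the other naive astrocyte libraries. In microglia libraries, monocyte and neutrophil markers were at 2.15 to 5.79 in naive and 3.78 to 6.95 in EAE-vehicle. In a bulk library, fewer cells of a type and less RNA per cell cannot be told apart.

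Sequences are shown for the genes whose reads or start regions bear on the results, in lower case from 5′ to 3′. C4b has a near copy, C4a, on the same chromosome, and their longest annotated transcripts were 96.1% identical over 5367 aligned bases. Of all stretches of 100 bases in the C4b transcript, 16.5% were also present in C4a, so part of the C4b reads could have been assigned to either gene. A stretch of 60 bases in the reading frame of C4b, in the GENCODE M21 transcripts of GRCm38, is shown because it holds the densest run of differences, 13 bases, printed in capitals.
C4b: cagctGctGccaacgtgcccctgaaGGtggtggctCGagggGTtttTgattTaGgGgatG
C4a: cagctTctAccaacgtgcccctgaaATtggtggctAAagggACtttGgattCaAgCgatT
The 250 bases before the start of C1qb (chr4:136886201-136886450, minus strand, GRCm38, from RefSeq) and of C3 (chr17:57228137-57228386, minus strand) are shown as the start regions of a chain that was high in every microglia library and of a component that was high in EAE only.
C1qb: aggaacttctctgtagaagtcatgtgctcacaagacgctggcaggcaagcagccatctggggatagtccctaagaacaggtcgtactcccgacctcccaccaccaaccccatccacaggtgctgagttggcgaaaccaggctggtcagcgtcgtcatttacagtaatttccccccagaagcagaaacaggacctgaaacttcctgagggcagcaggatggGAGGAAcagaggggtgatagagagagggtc
C3: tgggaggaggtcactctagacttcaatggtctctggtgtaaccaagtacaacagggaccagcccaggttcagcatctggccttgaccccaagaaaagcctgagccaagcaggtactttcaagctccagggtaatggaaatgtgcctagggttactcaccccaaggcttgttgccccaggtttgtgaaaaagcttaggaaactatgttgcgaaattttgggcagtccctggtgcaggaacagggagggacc
Capitals in C1qb mark GAGGAA, the core bound by the myeloid factor PU.1, at bases -30 to -25. C1qc held it at -193 to -188 on the other strand. It was present on either strand in 23.3% of 32851 promoters of this length. C3 and C3ar1 held none of the 5 motifs searched, and C5ar1 held only CCAAT, present in 33.8%. The other motifs, also searched on both strands, were the ISRE (GAAA, any pair of bases, GAAA), present in 2.98% of promoters, the GAS (TTCNNNGAA), in 7.02%, and the NF-kB site (GGGA, any base, TTTCC), in 0.356%. No match in these windows overlapped another. Promoters of 5 members were matched, and those of C1qa, C4b, Cfb and Serping1 were not used here. A match describes the letters and not a bound site. Positions are counted from the RefSeq start, which differs from the start of the annotated gene for C1qb, C1qc, C3ar1 and C5ar1. The C5ar1 window (chr7:16259339-16259588) reaches into the annotated gene, chr7:16246743-16259540, and its CCAAT match, at -158 to -154, lies inside that gene. The last bases of the C3ar1 window (chr6:122856158-122856407) lie in its annotated gene, chr6:122847138-122856161. The C1qc window (chr4:136892915-136893164) reaches into the annotated gene, chr4:136889804-136893065. The C1qb start lies outside its annotated gene, chr4:136880129-136886187, and the first bases after it were not found in a GENCODE transcript.

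In microglia of EAE-vehicle mice, 4 of the 9 members were higher than in naive mice (C3, C4b, Cfb and Serping1) and 1 was lower (C1qc), where 2.37% of 28958 genes were called higher, 1.56% lower and 3.92% either way. In astrocytes, 5 members were higher (C1qb, C1qc, C3, C4b and Serping1), where 0.342% of 30718 genes were called higher and 0.579% either way. A call is an adjusted p under 0.05 in limma, adjusted by Benjamini-Hochberg over all genes tested. The median log2 difference of the 9 members was 0.57 in microglia and 4.07 in astrocytes, against -0.02 and 0.03 over all genes. Without the 3 astrocyte libraries with the most or fewest genes with signal (naive 1 and EAE-vehicle 1 and 2), 1 of the 9, C4b, was called in astrocytes, and the differences of the other 4 were then 3.26 for C1qb, 4.24 for C1qc, 4.80 for C3 and 7.28 for Serping1. The cutoff of the study, a fold over 1.5 and an unadjusted p under 0.05, was passed by 6 members in microglia (12.0% of all genes passed) and by 6, all higher, in astrocytes (2.69% passed as higher). With 4 naive and 6 EAE-vehicle mice the smallest p of the exact two-sided permutation test is 0.00476, which was reached by 5 members in microglia and 6 in astrocytes whose groups did not overlap. Over all genes whose values vary in these groups, 5.33% did not overlap in microglia, and in astrocytes 1.03% did not overlap and were higher.

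**Figure D1:**
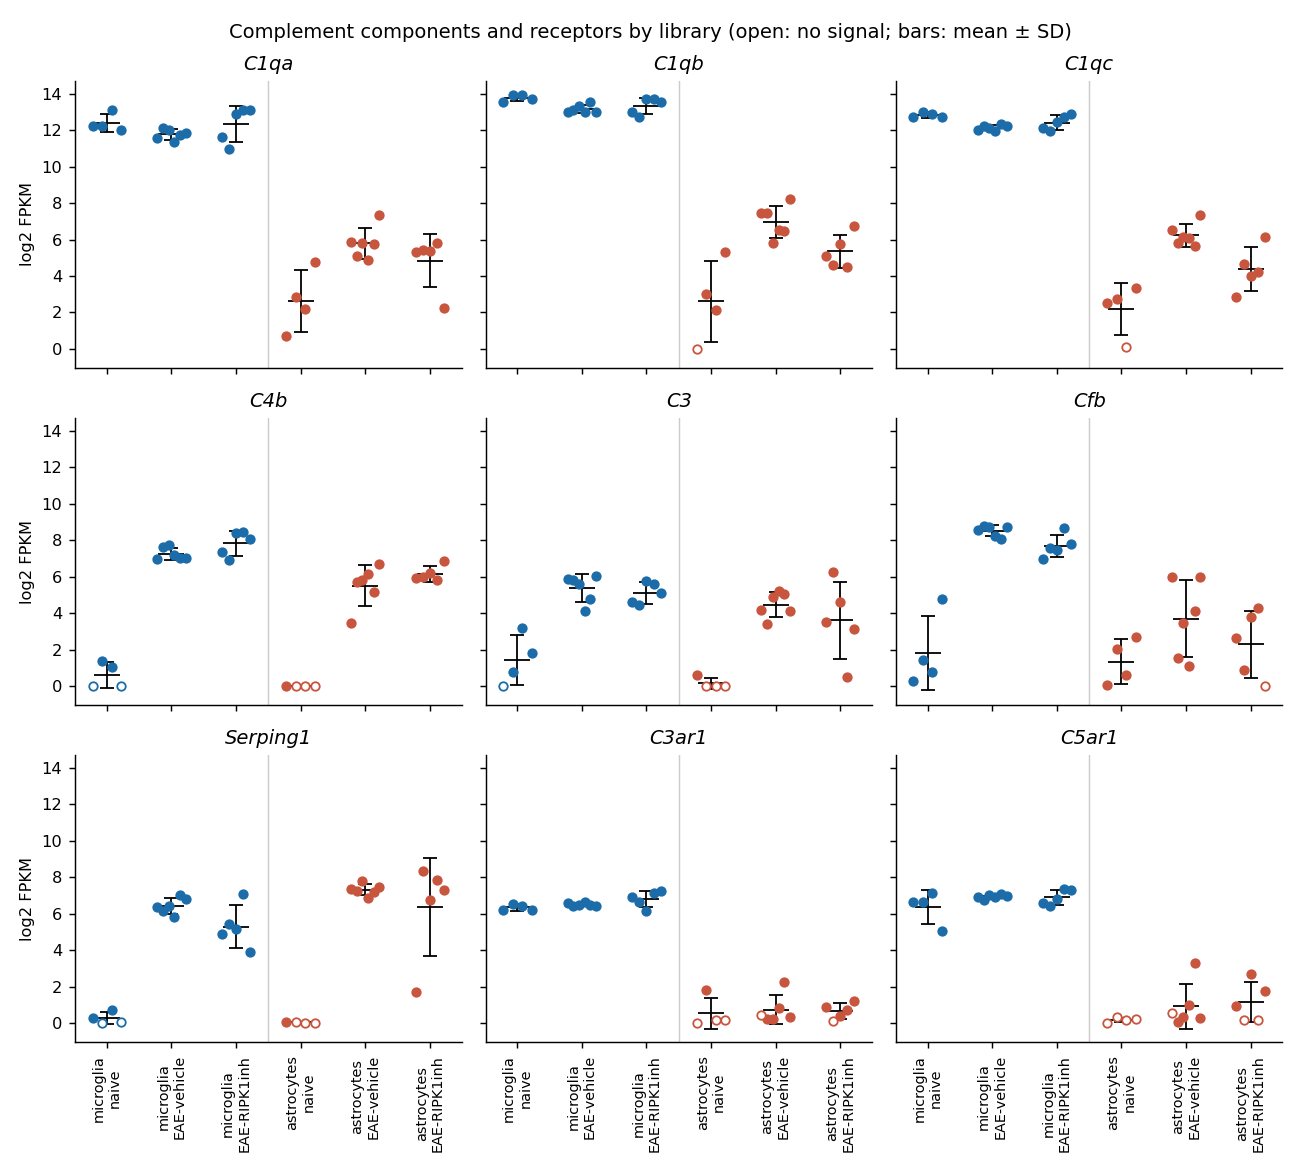
Level in log2 FPKM (y axis) of each of the 9 genes in every library, with microglia in blue and astrocytes in red, by treatment group (x axis). Filled points have signal, open points do not, and bars are the mean ± SD. C1qa, C1qb and C1qc lie above 10 in every microglia library, and C4b and Serping1 rise from near 0 in naive mice to above 3 in every EAE-vehicle library of both cell types.

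The C1q chains were among the most abundant transcripts of microglia. Their genes lie side by side on chromosome 4 (C1qa at chr4:136895917-136898803, C1qc at chr4:136889804-136893065 and C1qb at chr4:136880129-136886187, all on the minus strand). Counted from the highest gene of a library, C1qb ranked between 4 and 11, C1qc between 9 and 18 and C1qa between 8 and 29 in all 15 microglia libraries. At such ranks quantile normalization allows few values, and identical values recur between libraries.

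In microglia, C1qb was at 13.51, 13.93, 13.93 and 13.71 in naive mice, at 13.01 to 13.51 with a median of 13.06 in EAE-vehicle, and at 13.01, 12.70, 13.71, 13.71 and 13.51 in EAE-RIPK1inh. C1qc was at 12.70, 13.01, 12.87 and 12.70 in naive mice, at 11.93 to 12.32 with a median of 12.16 in EAE-vehicle, and at 12.10, 11.93, 12.43, 12.70 and 12.87 in EAE-RIPK1inh. C1qa was at 12.23, 12.23, 13.12 and 12.02 in naive mice, at 11.32 to 12.10 with a median of 11.77 in EAE-vehicle, and at 11.64, 10.97, 12.87, 13.12 and 13.12 in EAE-RIPK1inh. Naive and EAE-vehicle microglia did not overlap for C1qc and touched or overlapped for C1qa and C1qb. C1qc was lower in EAE-vehicle, with a log2 difference of -0.68 (SE 0.171, adjusted p = 0.0377 in limma), which is 1.60-fold lower. C1qb differed by -0.61 (95% interval -1.04 to -0.18, adjusted p = 0.128) and C1qa by -0.64 (-1.49 to 0.21, adjusted p = 0.519), and neither passed. The call of C1qc held in 6 of 15 fits that left out 1 library. It was lost without each of the 6 EAE-vehicle libraries and without naive 1, 2 or 3, where the adjusted p was 0.0532 to 0.115, while the difference stayed between -0.72 and -0.62.

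In astrocyte libraries the C1q chains were low in naive mice and higher in EAE-vehicle. C1qb was at 0.00 (no signal), 2.99, 2.13 and 5.33 in naive mice, at 5.79 to 8.22 with a median of 6.99 in EAE-vehicle, and at 5.08, 4.61, 5.77, 4.52 and 6.74 in EAE-RIPK1inh. C1qc was at 2.54, 2.75, 0.08 (no signal) and 3.32 in naive mice, at 5.62 to 7.37 with a median of 6.09 in EAE-vehicle, and at 2.86, 4.67, 3.99, 4.22 and 6.16 in EAE-RIPK1inh. C1qa was at 0.71, 2.82, 2.22 and 4.78 in naive mice, at 4.90 to 7.34 with a median of 5.78 in EAE-vehicle, and at 5.33, 5.44, 5.37, 5.81 and 2.26 in EAE-RIPK1inh. Naive and EAE-vehicle astrocytes did not overlap for any chain, and naive 4 was the highest naive library for each. C1qb rose by 4.37 (SE 0.823, adjusted p = 0.0245 in limma) and C1qc by 4.07 (SE 0.686, adjusted p = 0.0106). C1qa differed by 3.16 (SE 0.811, adjusted p = 0.124), which was not called, and was called with genes of a mean of at least 1 (adjusted p = 0.0175) and without EAE-RIPK1inh 5 (0.0497). The call of C1qb was lost without naive 1 or 3 or without EAE-vehicle 1, 2 or 6 (adjusted p 0.0523 to 0.104, log2 difference 3.50 without naive 1 and 4.12 to 4.28 without the others), and the difference was 5.28 without naive 4. With library quality weights it was 3.23 and not called (adjusted p = 0.0522). C1qc was at 3.38 without naive 3.

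The effect of EAE on the C1q chains differed between the cell types. The interaction term, the difference in microglia minus that in astrocytes, was -3.80 for C1qa (adjusted p = 0.0339 in limma), -4.98 for C1qb (adjusted p = 0.00183) and -4.75 for C1qc (adjusted p = 0.000266), and these were the 3 of 9 members called, where 0.378% of 30952 genes were called in that direction and 0.982% in either. The term of C1qa was lost in 10 of 30 fits that left out 1 library (astrocyte naive 1 and 3, astrocyte EAE-vehicle 6, microglia naive 1, 2 and 3, and microglia EAE-vehicle 1, 4, 5 and 6), with a largest adjusted p of 0.0910. It was also lost with quality weights (adjusted p = 0.0664) and without the 3 astrocyte libraries with the most or fewest genes with signal (0.102). The terms of C1qb and C1qc held in all 30, with C1qb at -4.11 without astrocyte naive 1 and -5.89 without astrocyte naive 4, and C1qc at -4.06 without astrocyte naive 3. Microglia markers moved with the C1q chains in astrocyte libraries. All 10 microglia markers had signal in at least 1 EAE-vehicle astrocyte library, 1 of them (Aif1) was without signal in all 4 naive astrocyte libraries, and their mean was 0.83 to 2.21 in naive and 1.32 to 3.46 in EAE-vehicle. In microglia libraries their mean was 10.12 to 10.58 in naive and 7.49 to 8.20 in EAE-vehicle. Of the EAE-vehicle astrocyte libraries, library 2, with the lowest microglia marker mean (1.32), had C1qa at 5.07, C1qb at 7.44 and C1qc at 5.79, and library 6, with a mean of 3.11, was the highest for all 3 chains. Monocyte and neutrophil markers moved as well, from 0.14 to 1.31 in naive astrocyte libraries to 1.81 to 4.72 in EAE-vehicle, with Ly6g without signal in both groups. The part of other cells in the astrocyte C1q values was not tested.

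C4b (chr17:34728380-34743882) encodes C4, which C1q-bound proteases cleave. It went from no or almost no signal in naive mice to a high level in both cell types in EAE. In microglia it was at 0.00 (no signal), 1.40, 1.05 and 0.01 (no signal) in naive mice, at 6.96 to 7.74 with a median of 7.10 in EAE-vehicle, and at 7.33, 6.90, 8.39, 8.43 and 8.06 in EAE-RIPK1inh. In astrocytes it was listed at 0.03 or below in all 4 naive libraries, at 3.44 to 6.70 with a median of 5.78 in EAE-vehicle, and at 5.92, 5.98, 6.17, 5.81 and 6.86 in EAE-RIPK1inh. Naive mice did not overlap with either EAE group in either cell type. The log2 difference was 6.63 in microglia (SE 0.36, adjusted p = 5.7e-08 in limma) and 5.50 in astrocytes (SE 0.537, adjusted p = 7.44e-05), and both calls held in every fit that left out 1 library. No fold is given for these rises, since values near 0 depend on the offset added before the logarithm, which is not known. With a further offset of 1 they were 5.89 and 4.54. The interaction term was 1.14 (95% interval -0.17 to 2.44, adjusted p = 0.653). The near copy C4a was at a mean of 1.31 in EAE-vehicle microglia and 0.13 in EAE-vehicle astrocytes.

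C3 (chr17:57203970-57228136), the protein on which the pathways converge, rose in both cell types. In microglia it was at 0.00 (no signal), 0.79, 3.20 and 1.79 in naive mice, at 4.11 to 6.02 with a median of 5.70 in EAE-vehicle, and at 4.62, 4.43, 5.77, 5.60 and 5.12 in EAE-RIPK1inh. In astrocytes it was at 0.62 in naive 1 and without signal in the other naive libraries, at 3.43 to 5.19 with a median of 4.52 in EAE-vehicle, and at 3.53, 6.24, 4.61, 0.52 and 3.16 in EAE-RIPK1inh. Naive and EAE-vehicle mice did not overlap in either cell type. The log2 difference was 3.92 in microglia (SE 0.557, adjusted p = 0.000731 in limma) and 4.31 in astrocytes (SE 0.825, adjusted p = 0.0275). The call in astrocytes was lost without any 1 of the 4 naive libraries or without EAE-vehicle 3, 5 or 6 (adjusted p 0.0559 to 0.104), while the difference stayed between 4.17 and 4.52 in all 15 such fits. The annotation marks C3 and Cfb as confounded with another gene, as it does 15717 of all 30952 genes.

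Cfb (chr17:34856374-34862518), the protease of the alternative pathway, was called higher in EAE in microglia and not in astrocytes. In microglia it was at 0.29, 1.45, 0.77 and 4.79 in naive mice, at 8.08 to 8.75 with a median of 8.63 in EAE-vehicle, and at 6.94, 7.58, 7.48, 8.65 and 7.77 in EAE-RIPK1inh. In astrocytes it was at 0.04, 2.04, 0.63 and 2.68 in naive mice, at 1.08 to 6.00 with a median of 3.78 in EAE-vehicle, and at 2.63, 0.86, 3.77, 4.26 and 0.00 (no signal) in EAE-RIPK1inh. Naive 4, which had the fewest genes with signal of the microglia libraries, was the highest naive microglia library, and astrocyte groups overlapped. Cfb rose by 6.69 in microglia (SE 0.658, adjusted p = 2.7e-05 in limma), and by 7.67 without naive 4. In astrocytes the difference was 2.34 (95% interval -0.08 to 4.77, adjusted p = 0.737), which was not called. The interaction term was 4.34 (95% interval 1.62 to 7.06, adjusted p = 0.13), which was not called. It was called with genes of a mean of at least 1 (adjusted p = 0.0389) and without microglia naive 4 (5.33, adjusted p = 0.0358). Cfb overlaps the annotated gene Gm20547 on the same strand, which was without signal in naive microglia and at 0.50 to 2.97 in EAE-vehicle microglia.

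Serping1 (chr2:84765387-84775444), which encodes C1 inhibitor, was the member with the highest mean in EAE-vehicle astrocytes. In astrocytes it was at 0.08 or below in all 4 naive libraries, at 6.87 to 7.77 with a median of 7.31 in EAE-vehicle, and at 1.70, 8.33, 6.73, 7.85 and 7.31 in EAE-RIPK1inh. In microglia it was at 0.27, 0.00 (no signal), 0.73 and 0.07 (no signal) in naive mice, at 5.85 to 7.05 with a median of 6.40 in EAE-vehicle, and at 4.88, 5.45, 5.18, 7.08 and 3.89 in EAE-RIPK1inh. Naive mice did not overlap with EAE-vehicle in either cell type, and 1 EAE-RIPK1inh astrocyte library stood apart from the other 4. The log2 difference was 7.27 in astrocytes (SE 0.942, adjusted p = 0.00117 in limma) and 6.18 in microglia (SE 0.462, adjusted p = 1.83e-06). Both calls held in every fit that left out 1 library. T cell markers moved with EAE in astrocyte libraries: 3 of 9 (Cd3d, Cd2 and Lck) were without signal in all naive libraries and none was in EAE-vehicle. The library with Serping1 at 1.70, the lowest of its group, also had the lowest T cell mean there (1.39). EAE-vehicle library 4, with the lowest T cell mean of its group (1.40), also had the lowest Serping1 there (6.87). The highest T cell means were in EAE-vehicle library 5 (5.79) and EAE-RIPK1inh library 3 (5.47), which had Serping1 at 7.17 and 6.73. In naive microglia libraries 1 to 4, the mean of the monocyte and neutrophil markers was 2.15, 2.67, 5.79 and 3.76, and C3, at 0.00, 0.79, 3.20 and 1.79, had the same order. Naive 3, the highest for both, had C4b at 1.05, Cfb at 0.77 and Serping1 at 0.73. These other members did not follow the marker order, with C4b highest in naive 2 (1.40) and Cfb in naive 4 (4.79). Among EAE-vehicle microglia libraries C3 followed the markers in part. Library 4 was lowest for both (markers 3.78, C3 4.11). Libraries 1 (6.95 and 5.88) and 6 (6.76 and 6.02) were the highest for both, and the order of the others differed. Among EAE-RIPK1inh microglia libraries, library 3 was highest for both (7.95 and 5.77). The lowest there was library 1 for the markers (3.20) and library 2 for C3 (4.43). The part of other cells in these values was not tested.

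The receptors were high in microglia in every group, and neither was called between treatment groups. C3ar1 (chr6:122847138-122856161) was at 6.19, 6.55, 6.45 and 6.23 in naive microglia, at 6.42 to 6.64 with a median of 6.48 in EAE-vehicle, and at 6.94, 6.67, 6.14, 7.12 and 7.26 in EAE-RIPK1inh. C5ar1 (chr7:16246743-16259540) was at 6.67, 6.64, 7.16 and 5.03 in naive microglia, at 6.76 to 7.09 with a median of 6.94 in EAE-vehicle, and at 6.58, 6.43, 6.83, 7.35 and 7.33 in EAE-RIPK1inh. The groups overlapped for both genes. EAE-vehicle minus naive was 0.15 for C3ar1 (95% interval -0.28 to 0.57, adjusted p = 0.786 in limma) and 0.57 for C5ar1 (-0.15 to 1.29, adjusted p = 0.512). In astrocyte libraries C3ar1 reached at most 2.28 and C5ar1 at most 3.31, both in EAE-vehicle 5, and C5ar1 was without signal in all 4 naive libraries.

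**Figure D2:**
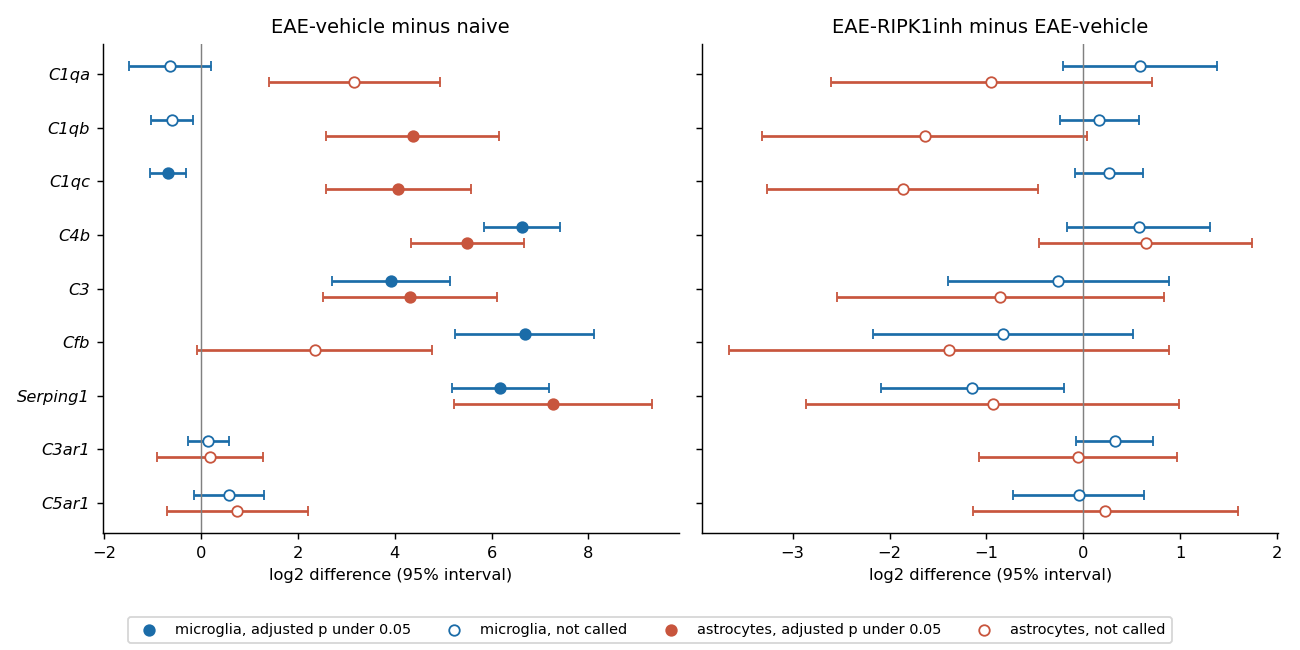
Log2 difference (x axis) of each gene between EAE-vehicle and naive mice (left) and between EAE-RIPK1inh and EAE-vehicle mice (right), in microglia (blue) and astrocytes (red). The 95% intervals use the limma standard error with the residual degrees of freedom. Filled points have an adjusted p under 0.05. C4b, C3 and Serping1 are called higher in EAE-vehicle in both cell types, and no point is filled on the right.

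No member was called between EAE-RIPK1inh and EAE-vehicle mice. Limma called 0 of 9 members in microglia, where 0.00345% of genes were called (1 gene), and 0 of 9 in astrocytes, where 0.00% were called. At an unadjusted p under 0.05 it counted 832 genes in microglia and 998 in astrocytes. Both are fewer than the 1447.9 and 1535.9 genes expected by chance at that threshold. Of the members, 1 in each cell type was among them. In microglia this was Serping1, lower by 2.22-fold (log2 difference -1.15, 95% interval -2.09 to -0.20, adjusted p = 0.93, exact permutation p = 0.0541). In astrocytes it was C1qc, lower by 3.64-fold (log2 difference -1.86, 95% interval -3.27 to -0.46, adjusted p = 0.84, exact permutation p = 0.013). The smallest p this exact two-sided test allows with 5 and 6 mice is 0.00216. Each passed the cutoff of the study, which 0.701% of genes passed as lower in microglia and 1.18% in astrocytes. C1qb in astrocytes, at -1.64 (-3.32 to 0.04), had an exact permutation p of 0.0195, and Cfb in microglia, at -0.83 (-2.17 to 0.52), had the same exact p of 0.0195 and an adjusted p of 0.93. Groups overlapped for all 9 members in both cell types.

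The 95% intervals of the inhibitor differences were narrowest in microglia for C1qc (-0.08 to 0.62), C3ar1 (-0.07 to 0.72) and C1qb (-0.24 to 0.57), and widest for Cfb in astrocytes, -3.66 to 0.89. For C4b the difference was 0.57 in microglia (-0.17 to 1.31) and 0.64 in astrocytes (-0.45 to 1.74). For C3 it was -0.26 in microglia (-1.40 to 0.88) and -0.86 in astrocytes (-2.54 to 0.83), where it was -0.08 without EAE-RIPK1inh 4 and -1.52 without EAE-RIPK1inh 2. The value of Serping1 in astrocytes, -0.93, rested on EAE-RIPK1inh 1 and was 0.24 without it. The test of whether the effect differed between cell types called 0 of 9 members, where 0.00% of genes were called. An unadjusted p under 0.05 was found for 1066 genes, fewer than the 1547.6 expected by chance. C1qc (2.13, adjusted p = 0.948 in limma) and C1qb (1.81, adjusted p = 0.948) were among them.

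Against naive mice, EAE-RIPK1inh microglia had the same 4 members higher (C4b by 7.21, Cfb by 5.86, Serping1 by 5.03 and C3 by 3.66 on the log2 scale, largest adjusted p = 0.0024 in limma), where 1.81% of genes were called higher and 2.73% either way. Cfb was at 6.84 without naive 4. C1qc was at -0.42 there (adjusted p = 0.34). EAE-RIPK1inh astrocytes had 2 members higher than naive, C4b by 6.14 (adjusted p = 4.25e-05) and Serping1 by 6.33 (adjusted p = 0.0104), where 0.124% of genes were called higher and 0.130% either way. Serping1 there was at 7.51 without EAE-RIPK1inh 1. C3 differed by 3.45 (adjusted p = 0.273) and was called without EAE-RIPK1inh 4 (4.23, adjusted p = 0.0207). These comparisons share their naive libraries with those of EAE-vehicle.

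Which cell type held more of each component was tested within each treatment group. Both cell types came from the same mice by the design text, the labels do not say which libraries share a mouse, and these tests took the libraries as independent. In naive mice 5 members were higher in microglia (C1qa, C1qb, C1qc, C3ar1 and C5ar1), where 5.94% of 30952 genes were called higher and 11.9% either way. In EAE-vehicle 7 were higher in microglia, with C4b and Cfb added, where 7.89% were called higher and 13.8% either way. The same 7 were higher in EAE-RIPK1inh, where 7.18% were called higher and 13.0% either way. No member was called higher in astrocytes in any group. The libraries of these members did not overlap between cell types. Of all genes, 7.05% were higher in microglia with no overlap in naive, 4.84% in EAE-vehicle and 6.59% in EAE-RIPK1inh mice.

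**Figure D3:**
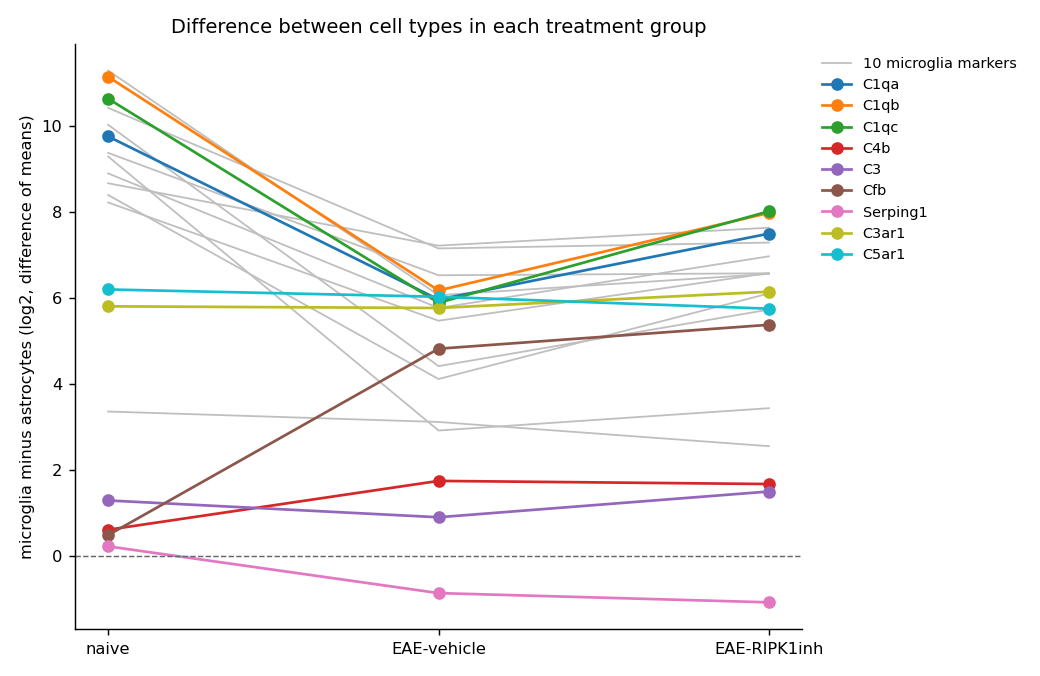
Microglia minus astrocytes (y axis, difference of the mean log2 FPKM) for each of the 9 genes (coloured) and for 10 microglia markers (grey) in each treatment group (x axis). The C1q lines fall from 9.77 to 11.16 in naive mice to 5.89 to 6.18 in EAE-vehicle, Cfb goes from 0.48 to 4.82, and Serping1 lies below 0 in both EAE groups.

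C1qb was higher in microglia than in astrocytes by 11.16 in naive mice, 6.18 in EAE-vehicle and 7.98 in EAE-RIPK1inh on the log2 scale. C1qa differed by 9.77, 5.97 and 7.50, and C1qc by 10.65, 5.89 and 8.02 in the same order. The naive differences moved to between 9.12 and 10.48 for C1qa and between 10.29 and 12.06 for C1qb without astrocyte naive 1 or 4, and to 9.95 for C1qc without astrocyte naive 3. C1qa in EAE-RIPK1inh was at 6.86 without astrocyte library 5. In EAE-vehicle mice these differences are 72.5-fold, 62.6-fold and 59.4-fold, and the largest adjusted p among them was 4.62e-09 in limma. The receptors differed by 5.75 to 6.20 in every group, with group means of 0.17 to 1.15 in astrocytes.

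C4b was higher in microglia by 1.74 in EAE-vehicle (SE 0.4, 3.34-fold, adjusted p = 0.00259 in limma) and by 1.67 in EAE-RIPK1inh (SE 0.438, 3.18-fold, adjusted p = 0.00889). Cfb was higher in microglia by 4.82 (28.3-fold, adjusted p = 9.48e-05) and 5.38 (adjusted p = 8.18e-05). In naive mice, where both were low, C4b differed by 0.60 (adjusted p = 0.596) and Cfb by 0.48 (adjusted p = 1), and Cfb turned to -0.51 without microglia naive 4. C3 did not pass in any group, at 1.29 in naive, 0.90 in EAE-vehicle (95% interval -0.42 to 2.21, adjusted p = 0.398) and 1.49 in EAE-RIPK1inh (0.06 to 2.93, adjusted p = 0.19), and it was called in the last without astrocyte EAE-RIPK1inh 2 (2.15, adjusted p = 0.0249).

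Serping1 was the member nearest to the opposite order. Its mean was 7.32 ± 0.31 (SD, n = 6) in EAE-vehicle astrocytes and 6.44 ± 0.44 (SD, n = 6) in EAE-vehicle microglia, and 1 group reached into the other only at 6.87 against 7.05. Microglia minus astrocytes was -0.87 (95% interval -2.28 to 0.54, adjusted p = 0.452 in the fit of all 30 libraries). The exact permutation p was 0.00433, where 0.00216 is the smallest possible, and in a limma fit of the EAE-vehicle libraries alone the adjusted p was 0.0302. In EAE-RIPK1inh the difference was -1.09 (adjusted p = 0.402), and without astrocyte EAE-RIPK1inh 1 it was -2.26 (adjusted p = 0.000377).

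FPKM is scaled to gene length, so the levels of the members can be set in order within a cell type. In EAE-vehicle microglia the order of the mean levels was C1qb (13.16), C1qc (12.14), C1qa (11.76), Cfb (8.51), C4b (7.25), C5ar1 (6.95), C3ar1 (6.50), Serping1 (6.44) and C3 (5.37). The libraries of neighbours overlapped for C1qc and C1qa, C4b and C5ar1, C3ar1 and Serping1, and Serping1 and C3, and the other neighbours were apart. In EAE-vehicle astrocytes the order was Serping1 (7.32), C1qb (6.98), C1qc (6.25), C1qa (5.79), C4b (5.51), C3 (4.47), Cfb (3.69), C5ar1 (0.92) and C3ar1 (0.73), and every neighbour overlapped with the next. In naive microglia the lowest C1q chain, C1qa, stood 6.02 above the next member, C5ar1, and Cfb, C3, C4b and Serping1 had means of 0.27 to 1.83.

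Of 50 further complement genes looked up, 39 were in the table, and 38 of them varied in microglia. In EAE-vehicle against naive microglia 4 of 38 rose and 2 fell, where 2.37% of all genes were called higher and 1.56% lower. In astrocytes limma called 0 of 39, where 0.579% of all genes were called, and 8 of 39 passed the cutoff of the study (4 in each direction), which 6.71% of all genes passed. In microglia C2, which is cleaved along with C4, was without signal in all naive libraries and at 2.45 to 4.28 in EAE-vehicle (log2 difference 3.66, adjusted p = 5.68e-05). C2 also overlaps Gm20547. Itgax, a chain of complement receptor 4, rose by 2.64 (adjusted p = 0.000966), and Colec12, a scavenger receptor of the collectin family, by 2.32 (adjusted p = 0.0215). The other was Cfp (properdin, which stabilizes the alternative pathway enzyme), named after its value was seen, at 2.30 (adjusted p = 0.0459). Csmd3, of a family of complement-control-domain proteins, fell by 3.50 (adjusted p = 0.00215). The median log2 difference of the 38 genes was 0.02, against -0.02 over all genes.

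**Figure D4:**
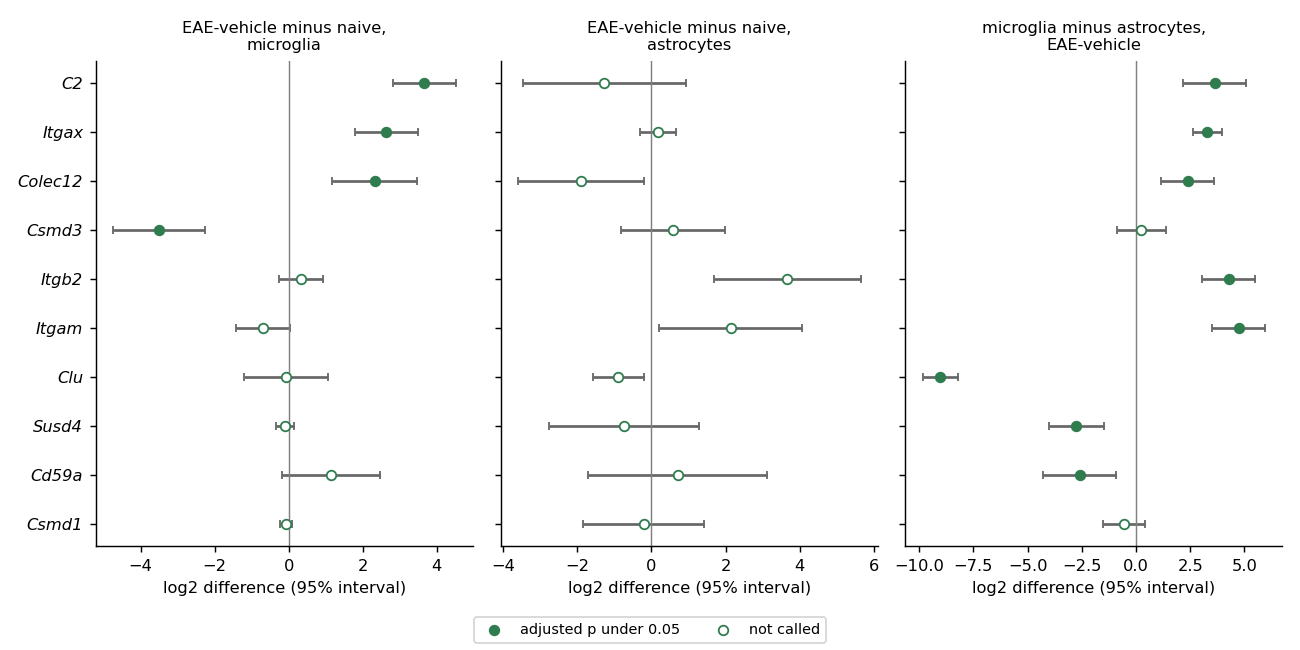
Log2 difference with 95% intervals (x axis) of further complement genes (y axis) for EAE-vehicle minus naive in microglia (left) and astrocytes (middle), and for microglia minus astrocytes in EAE-vehicle mice (right). Filled points have an adjusted p under 0.05. C2, Itgax and Colec12 lie to the right of 0 and Csmd3 to the left in microglia, and Clu lies at -9.03 in the right panel.

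Between cell types, 9 of these 39 genes were higher in EAE-vehicle microglia, where 7.89% of all genes were, and 3 were higher in astrocytes, with 13.8% of all genes called either way. Itgb2, the shared chain of complement receptors 3 and 4, was higher in microglia by 4.27. Itgam encodes CD11b, which the sort used, so its difference of 4.74 is no finding. Regulators led the astrocyte side. Clu (clusterin, a fluid-phase regulator) was higher in astrocytes in every group, with a log2 difference of -9.85 in naive, -9.03 in EAE-vehicle and -9.40 in EAE-RIPK1inh. Susd4, a complement inhibitor, differed by -2.74 and Cd59a, which blocks the membrane attack complex, by -2.59 in EAE-vehicle (adjusted p = 0.00204 and 0.0311 in limma).

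The genes most like each member were named by Pearson's r over the 15 libraries of the cell type with the higher mean, among 5700 genes in microglia and 4714 in astrocytes, as a description. In microglia C4b was most like Slamf7 (r = 0.984), Acod1 (0.983) and Oasl2 (0.983), and Cfb was most like Cd36 (0.988), Ly6i (0.970) and Rnf213 (0.968). In astrocytes Serping1 was most like Ifi27l2a (0.977), Spp1 (0.952) and Tgtp1 (0.951). These 15 libraries share the contrast of naive with EAE mice and the normalization. The C1q chains correlated with each other at r = 0.78 to 0.89 in microglia and 0.61 to 0.84 in astrocytes.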

How the data were processed

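Microglia and astrocytes of 15 mice gave 30 libraries, prepared from poly(A) RNA by a full-length method that does not mark strand. The authors aligned and quantified the reads in OmicSoft Array Studio and deposited log2 FPKM values, quantile-normalized over the 30 libraries. The aligner, annotation release and offset are not given in the sources used here. Read counts cannot be had from these values, so no count test or counting error was computed, and the number of libraries sets the precision. Gene positions matched GENCODE M21 (GRCm38) for 9 of 9 members.

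Groups were taken from the deposited labels. Differences were fitted with limma 3.58.1 (R 4.3.3; lmFit, eBayes with trend) on all genes whose values vary, 28958 in microglia, 30718 in astrocytes and 30952 with both, and adjusted by Benjamini-Hochberg over all of them. Fits were tested on simulated data. Exact two-sided permutation tests took every library as independent, also between cell types, although both cell types come from the same mice. The study names a paired test, and the fits here are unpaired. The members and gene lists were chosen with earlier results of these data known. Named further genes were, the 3 that rose most and the 3 that fell most in a comparison at an adjusted p under 0.05 and a mean of at least 1, and genes most like a member were the 3 highest by Pearson's r among those with a mean of at least 3. Some genes that these rules name are not reported here. Alternatives were a filter on low means, median centring, a further pseudocount of 1, library quality weights, the replicate number as a block, fits of 1 treatment group and leaving out each library.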

Additional observations from a re-analysis of the deposited data

Results flagged for a closer look

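In 54 groups of member values, 6 held a library that stood apart from its group by Dixon's test at the 95% level, and chance flags about 1 in 20 groups, which is 2.7 here. All were astrocyte libraries. Serping1 was at 1.70 in EAE-RIPK1inh 1, far below the other libraries of that group. C1qa was at 2.26 in EAE-RIPK1inh 5, below the others, although C1qb and C1qc were the highest of the group there. C3 was at 0.62 in naive 1, the only naive astrocyte library with C3 signal and the one with the most genes with signal. C3ar1 was at 1.84 in naive 2 and at 2.28 in EAE-vehicle 5, and C5ar1 was at 3.31 in EAE-vehicle 5, each above the other libraries of its group. The C3ar1 value in naive 2 lay just above the highest value without signal in that library, 1.69.

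The effect of EAE-vehicle against naive differed between the cell types for the C1q chains, with an interaction term of -3.80 for C1qa, -4.98 for C1qb and -4.75 for C1qc, lower in microglia than in astrocytes.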

How the results depend on the processing

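Over 11 counts of called members and 306 alternatives, 299 counts stayed within 1.5 times of the reported one, and 7 fell. This tally includes the counts of the inhibitor against vehicle comparisons, which were 0 in every alternative. It also takes a fall from 5 to 4 in EAE-vehicle microglia, or from 3 to 2 in the interaction of EAE with cell type, as unchanged. The count for EAE-vehicle against naive in astrocytes, 5, was 2 with the replicate block, 1 without the 3 astrocyte libraries with the most or fewest genes with signal (naive 1 and EAE-vehicle 1 and 2, an alternative chosen after seeing the data), and 3 to 6 when 1 library was left out, with 3 without naive 1, naive 3 or EAE-vehicle 6. The count for EAE-RIPK1inh against naive in astrocytes, 2, was 1 with the replicate block and 1 without the same 3 libraries. C4b was the gene called where the count was 1, and C4b and Serping1 where it was 2 with the block. The call of C1qc in EAE-vehicle microglia was lost with quality weights (adjusted p = 0.199 in limma) and with the replicate block (0.0667), and the interaction term of C1qa was lost with the replicate block (0.105). The replicate numbers were not shown to pair mice: the deviations of same-numbered microglia and astrocyte libraries correlated above 0.1 in 1 of 15 pairs (median r = 0.0167), and 5 of 15 microglia libraries correlated best with their own number.

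Of 2196 alternative values of single members, 2130 kept direction and side of the threshold, and 10 changed sign, all of members that were not called. C5ar1 in EAE-RIPK1inh against EAE-vehicle microglia was 0.12 with quality weights and -0.16 to 0.069 when 1 library was left out. C1qa in EAE-RIPK1inh against naive microglia was 0.23 with quality weights and -0.25 to 0.29 in those fits. Cfb between naive cell types was -0.37 with quality weights and -0.51 to 0.99 in those fits. Serping1 in EAE-RIPK1inh against EAE-vehicle astrocytes was -1.42 to 0.24 in those fits. The cause of these changes was not tested. The unknown offset and depth limit every difference that starts from values near 0.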
